A study of Homo sapiens with 12 samples.

Results

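Well-known parts of the p53 response, the genes MDM2, MDM4, CDKN1A, BAX, BBC3, SESN1, RRM2B and FAS, were followed through RNA-Seq of HEK293T cells. They were chosen by gene name, and all 8 were found among the 58735 genes of the count table. HEK293T is a human embryonic kidney cell line, labelled WT, measured in 4 groups of 3 independent replicates under conditions used for PACCE, a method that finds cysteines at RNA-protein contacts. The DMSO group received vehicle, the CEP group AHL-Pu-1, a clickable electrophilic purine, for 1 h at 25 µM, the 4SU group 4-thiouridine at 100 µM for 16 h, and the CEP+4SU group both compounds. CEP reacts with cysteines of proteins, and 4SU is a uridine analog that cells build into new RNA. The treatment text on the labels gives the CEP dose in mM where the design summary gives µM. It also describes the same UV crosslinking for every library and does not say whether cells without 4SU were irradiated.

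p53 is a transcription factor that cells stabilize after DNA damage or disturbed ribosome assembly. It binds pairs of a short repeated motif near its target genes, and these targets halt the cell cycle, start apoptosis, aid DNA repair and limit p53 itself. MDM2 ubiquitinates p53 for degradation and its relative MDM4 blocks its transcriptional activity, so that MDM2 closes a feedback loop. HEK293T cells carry the SV40 large T antigen, which binds p53 and holds it inactive. The comparison asked whether transcripts of these genes differed after the electrophile or the thiolated nucleoside in such cells.

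The closest matches to the DNA element through which p53 acts are shown first, for the 3 members with the fewest mismatches to it. RefSeq promoter windows (GRCh38.p14, from 250 bases before to 50 after a start) were used for 7 of the 8 genes, 14 windows in all. RRM2B was not searched. The windows were searched on both strands with the 20-base p53 consensus element, that is, adjacent copies of its half-site. Capitals below mark bases that match the consensus, each sequence is written 5′ to 3′ as the element reads on the gene's own strand, and the coordinates count on the plus strand.
MDM2 (chr12:68808923-68808942, plus strand): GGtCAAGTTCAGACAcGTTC
FAS (chr10:88991309-88991328, plus strand): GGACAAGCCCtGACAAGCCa
SESN1 (chr6:109009018-109009037, minus strand): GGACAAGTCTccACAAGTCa
The MDM2 element had 2 mismatches and lay before the inner start sites of the gene, 94 and 101 bases upstream of them, outside annotated exons. The FAS element, also with 2 mismatches, lay 122 bases before an inner start and inside an annotated exon. At most 2 mismatches were found in 0.649% of all 35116 windows searched. The SESN1 element had 3 mismatches, a number or fewer that 5.2% of all windows reached, and lay outside exons. The best match had 4 mismatches for BAX, a number reached in 26% of all windows, and 5 in the windows of MDM4, CDKN1A and BBC3. These shares are per window, and MDM2, FAS and SESN1 had several windows each, where every other gene searched had a single window. In the windows of these 3 genes that lacked the elements shown, the best match had 5 mismatches. A match describes letters and is no measure of binding, and elements outside these windows were not searched.

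Of the 8 genes, 7 lie at chr12:68808176-68850686 (MDM2), chr1:204516379-204558120 (MDM4), chr6:36676460-36687339 (CDKN1A), chr19:48954815-48961798 (BAX), chr19:47220822-47232766 (BBC3), chr6:108986437-109094819 (SESN1) and chr10:88990582-89015785 (FAS) on GRCh38, with BBC3 and SESN1 on the minus strand and the other 5 on the plus strand. MDM2 overlaps the carboxypeptidase gene CPM on the opposite strand, which had 2228 counts over all 12 libraries.

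The MDM2 stretch is shown in context, with the matched element in capitals, because MDM2 had the smallest p-value of the members in the comparison with CEP. Only the best match of each window was kept, so weaker matches to the element among the lower-case bases are not marked.
MDM2 inner promoter (chr12:68808903-68808982, plus strand, GRCh38.p14): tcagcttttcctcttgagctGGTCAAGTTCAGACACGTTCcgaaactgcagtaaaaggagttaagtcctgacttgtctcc

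Depth was 16569114 to 24644734 counts on genes per library, and the share on mitochondrial genes was 0.967% to 1.65%. Fewest genes were detected in CEP replicate 2 (22230) and CEP+4SU replicate 2 (22627), against at least 24376 in the other 10 libraries. Keratin and neurofilament transcripts known from HEK293T cells were present in every library, with KRT18 at 16.6 to 20.5 FPKM and NEFM at 32.1 to 40.9 FPKM. Hemoglobin HBB had 0 counts, the fibroblast collagen gene COL1A1 was at 2.89 to 4.22 FPKM, and PTPRC, PECAM1 and ALB, which mark blood, endothelial and liver cells, stayed at or under 0.121 FPKM. FPKM relates fragments to both gene length and library size and serves to compare genes, and CPM relates counts to the TMM library size alone and serves to compare 1 gene between libraries. For the members, a library held between 115 counts (BBC3 in CEP replicate 2) and 4438 counts (MDM2 in CEP+4SU replicate 2). The counting error alone was therefore 1.5% to 1.89% of the value for MDM2, 4.59% to 9.33% for BBC3 and 7.11% to 8.51% for FAS. Since each library is a bulk sample, fewer cells with a transcript and less of it per cell cannot be told apart.

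All 8 genes were transcribed in vehicle-treated cells, at levels that spanned a wide range per length. BAX was highest at 36.8 ± 1.02 FPKM (SD, n = 3 here and below). CDKN1A followed at 17.6 ± 0.867, MDM2 at 11.2 ± 0.321, RRM2B at 10.2 ± 0.079 and SESN1 at 7.26 ± 0.621 FPKM. Each of these neighbours was separated by its 3 libraries, although MDM2 was only 1.1 times as high as RRM2B. BBC3 at 5.34 ± 0.79 FPKM and MDM4 at 4.28 ± 0.435 FPKM overlapped. FAS was lowest at 1.8 ± 0.0599 FPKM. Among the 17729 genes tested, mean FPKM over the 12 libraries put BAX at the 91.9th percentile and FAS at the 37.8th. Within groups, the replicate spread in DMSO was 0.449% of the mean for RRM2B and 15.1% for BBC3. For RRM2B this was below the counting error of 2.35% to 3.08%.

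**Figure D1:**
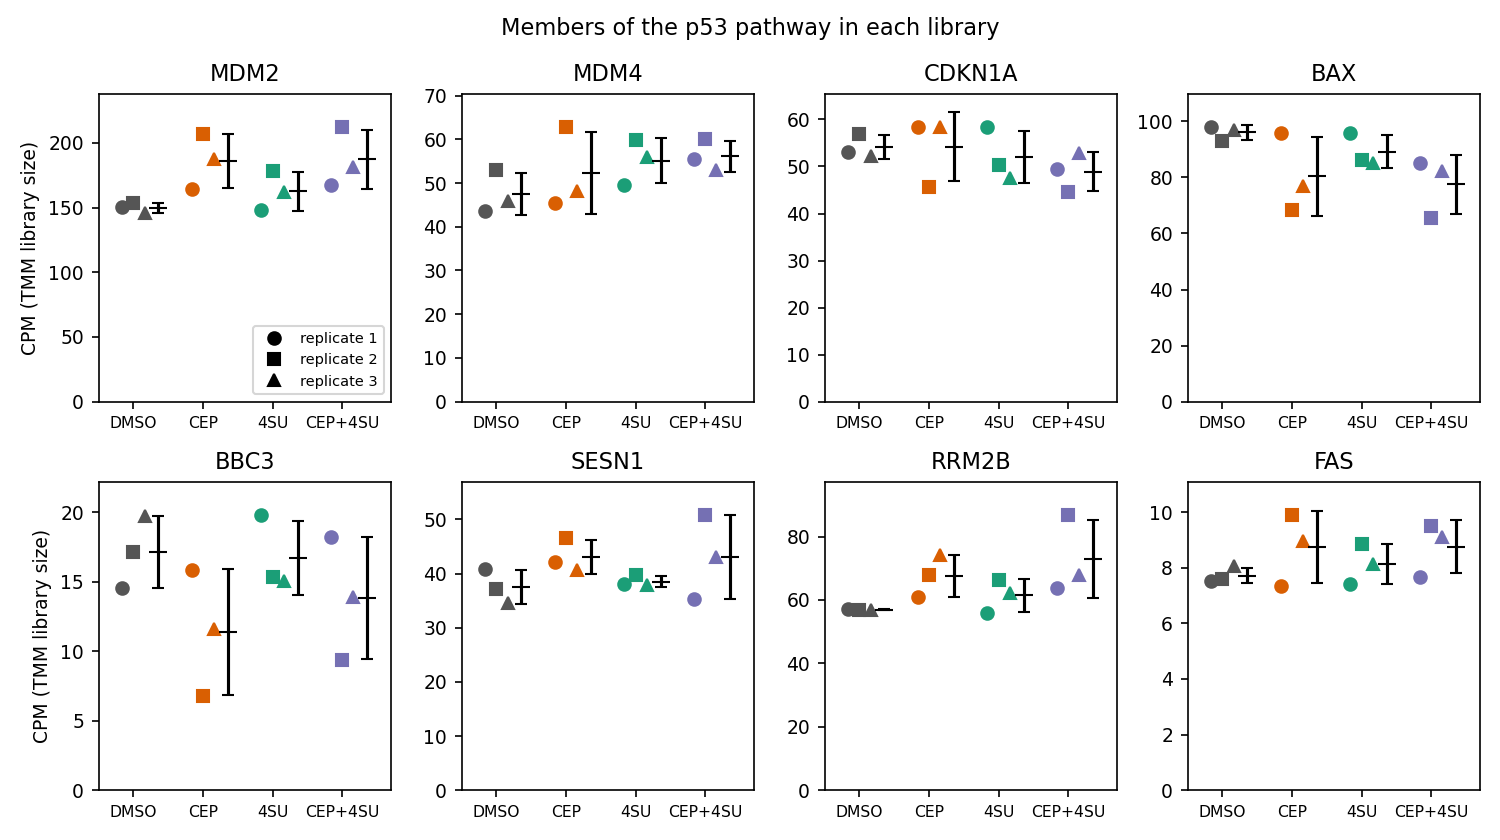
Each panel plots 1 gene, with CPM on TMM library sizes on the vertical axis from 0 and the 4 groups on the horizontal axis; symbols are single libraries by replicate number and the bar beside them is the mean with its SD (n = 3). MDM2 and RRM2B in all CEP and CEP+4SU libraries lie above their DMSO libraries, BBC3 spreads from 6.77 to 19.8 CPM, and CDKN1A overlaps between all groups.

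With edgeR's quasi-likelihood test and Benjamini-Hochberg adjustment over 17729 genes, 0 of the 8 members passed an adjusted p of 0.05 in any of the 6 comparisons made. The background was 0.0564% of tested genes called for CEP against DMSO, 0.00564% for 4SU, 1.64% for CEP+4SU, 0.276% for CEP averaged over 4SU, 0.558% for 4SU averaged over CEP and 0% for the interaction. At an unadjusted p under 0.05, edgeR gave 4 members for CEP, where 18.6% of all tested genes passed, and 3 for CEP+4SU, where 21.4% did. It gave 5 for CEP averaged over 4SU, against 24.3% of all genes. The counts were 0 for 4SU, 4SU averaged over CEP and the interaction, against 6.50%, 12.6% and 2.63%. DESeq2 called 0 members for CEP, 2 for CEP+4SU (MDM2 and RRM2B) and 3 for CEP averaged over 4SU (these and BAX), where it called 1.83%, 9.96% and 14.6% of the genes to which it gave an adjusted p. It called 0 members for 4SU (0.363% of all genes), 4SU averaged over CEP (2.62%) and the interaction (0%), and for 4SU only 5 members had an adjusted p from DESeq2. Members whose 3 treated libraries did not overlap the 3 DMSO libraries numbered 2 for CEP, 0 for 4SU and 4 for CEP+4SU, where 23.7%, 17.9% and 28.7% of all tested genes did not overlap. The 3 comparisons with DMSO share the same control libraries, so their values are set side by side without a test between them.

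MDM2 was the member with the smallest p-values in the comparisons with CEP. It stood at 150.7, 153 and 146 CPM in DMSO and at 164, 207 and 188 CPM with CEP. With CEP+4SU it stood at 168, 213 and 182 CPM, and with 4SU alone at 148, 178 and 162 CPM. Every library that received CEP lay above every DMSO library, but the 4SU libraries spread across both ranges. The log2 fold change was 0.31 ± 0.097 (SE; 95% interval 0.11 to 0.51) for CEP, with an adjusted p of 0.174 by edgeR's quasi-likelihood test. It was 0.32 ± 0.0969 (0.12 to 0.52; edgeR adjusted p = 0.0819) for CEP+4SU and 0.12 ± 0.0971 (-0.08 to 0.32; edgeR adjusted p = 0.854) for 4SU. Averaged over 4SU, CEP gave 0.26 ± 0.0686 (0.11 to 0.40; edgeR adjusted p = 0.0681), a level 1.2 times as high. None of these passed the threshold. The result depended on single libraries: without CEP replicate 1 the value for CEP was 0.41 with an edgeR adjusted p of 0.0266, and without CEP+4SU replicate 1 that for CEP+4SU was 0.38 with 0.0419. Calls over all genes moved as well. With 1 library left out they ran from 4 to 1214 for CEP, against 10 with all 12 libraries. For CEP+4SU they ran from 14 to 812, against 290. This background also applies to the members below that passed with 1 library left out. Over all 24 alternatives the adjusted p ran from 0.0266 to 0.477 for CEP and from 0.0104 to 0.37 for CEP+4SU.

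MDM4, the second regulator of p53 here, ranged from 43.7 to 52.9 CPM in DMSO, 45.5 to 62.9 with CEP, 49.6 to 59.9 with 4SU and 52.9 to 60.005 with CEP+4SU. Its CEP+4SU libraries started just above the highest DMSO library, at 52.94 against 52.91 CPM. The log2 fold changes were 0.13, 0.21 and 0.24 for CEP, 4SU and CEP+4SU, with edgeR adjusted p-values of 0.544, 0.79 and 0.239. The intervals reached up to 0.38, 0.46 and 0.48 on the log2 scale. For CEP the sign rested on CEP replicate 2, without which the value was -0.02. MDM4 was the member with the largest value for 4SU alone.

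CDKN1A encodes p21, the inhibitor of cyclin-dependent kinases through which p53 arrests the cell cycle. It stood at 53.1, 57.0 and 52.1 CPM in DMSO and at 58.5, 45.7 and 58.5 CPM with CEP. With 4SU it stood at 58.3, 50.3 and 47.6 CPM and with CEP+4SU at 49.4, 44.5 and 52.8 CPM. The groups overlapped throughout, and the 2 lowest of the 12 values came from replicate 2 of both CEP-treated groups. Fitted log2 fold changes were 0.01 (95% interval -0.22 to 0.23) for CEP, -0.05 (-0.28 to 0.17) for 4SU and -0.14 (-0.37 to 0.08) for CEP+4SU, with edgeR adjusted p-values of 0.981, 0.944 and 0.459. These intervals put an increase above 1.17-fold with CEP, 1.13-fold with 4SU or 1.06-fold with both outside the 95% limits of the fit. The limits apply to that fit alone. With the trend of each library on GC content removed, the values were 0.17 ± 0.0818 (SE) for CEP and 0.02 ± 0.082 for CEP+4SU. For CEP the sign depended on the setting, from -0.05 without CEP replicate 3 to 0.17 once the trend of each library on GC content was removed.

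BAX, BBC3 and FAS carry the apoptotic arm of the response. BAX, which permeabilizes the outer mitochondrial membrane, stood at 98.2, 93.0 and 97.0 CPM in DMSO and at 95.8, 68.3 and 77.1 CPM with CEP. It stood at 95.9, 86.1 and 85.3 CPM with 4SU and at 85.0, 65.4 and 82.2 CPM with CEP+4SU. All CEP+4SU libraries were below all DMSO libraries, whereas CEP replicate 1 lay inside the DMSO range. For CEP the fold change on the log2 scale was -0.26 ± 0.113 (95% interval -0.49 to -0.02; edgeR adjusted p = 0.236), with -0.11 ± 0.112 (-0.34 to 0.13; edgeR adjusted p = 0.892) for 4SU and -0.31 ± 0.113 (-0.55 to -0.07; edgeR adjusted p = 0.128) for CEP+4SU. Without CEP replicate 1 the value for CEP was -0.39 with an edgeR adjusted p of 0.0394, in a range of 0.0394 to 0.789 over all alternatives.

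BBC3, which encodes the BH3-only protein PUMA, had the widest spread of the members. DMSO libraries held 14.5, 17.1 and 19.7 CPM and CEP libraries 15.9, 6.77 and 11.6 CPM. The 4SU libraries held 19.8, 15.3 and 15.02 CPM and the CEP+4SU libraries 18.2, 9.39 and 13.9 CPM. The low values again came from replicate 2 of both CEP-treated groups, and replicate 1 of both lay within the DMSO range. With CEP its log2 fold change was -0.58 ± 0.241 (95% interval -1.09 to -0.08; edgeR adjusted p = 0.22), and without CEP replicate 2 and CEP+4SU replicate 2 it was -0.32. For 4SU it was -0.03 ± 0.237 (-0.53 to 0.46; edgeR adjusted p = 0.988) and for CEP+4SU -0.31 ± 0.238 (-0.81 to 0.19; edgeR adjusted p = 0.468), which became -0.09 without these libraries. Without CEP replicate 1 the value for CEP was -0.88 with an edgeR adjusted p of 0.0381, in a range of 0.0129 to 0.776 over all alternatives.

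FAS, the death receptor, had 138 to 198 counts per library and 7.35 to 9.90 CPM. Its log2 fold changes of 0.18, 0.07 and 0.18 for CEP, 4SU and CEP+4SU had intervals that all included 0, from -0.15 to 0.50 for CEP, from -0.26 to 0.40 for 4SU and from -0.14 to 0.51 for both. The edgeR adjusted p-values were 0.551, 0.948 and 0.523. FAS overlaps ACTA2 on the opposite strand, to which 495 counts were given over all libraries, and whether counting used strand is not stated.

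SESN1 and RRM2B stand for stress metabolism and repair. SESN1 encodes a sestrin that restrains mTORC1 signalling, and it ranged from 34.6 to 40.7 CPM in DMSO, 40.6 to 46.5 with CEP, 37.9 to 39.7 with 4SU and 35.4 to 50.8 with CEP+4SU. Its log2 fold changes were 0.20, 0.04 and 0.20, with edgeR adjusted p-values of 0.35, 0.965 and 0.315. RRM2B, the ribonucleotide reductase subunit that supplies nucleotides for DNA repair, stood at 57.2, 56.9 and 56.7 CPM in DMSO. It stood at 61.0, 67.9 and 74.2 CPM with CEP, at 55.9, 66.2 and 62.2 CPM with 4SU and at 63.9, 86.8 and 67.9 CPM with CEP+4SU. As for MDM2, all 6 CEP-treated libraries were above all DMSO libraries and the 4SU libraries were not. The DMSO spread of RRM2B, 0.449% of the mean, was below its counting error of 2.35% to 3.08%. Of all tested genes, 23.7% did not overlap DMSO for CEP and 28.7% for CEP+4SU, and the share for both groups together was not computed. The log2 fold change was 0.25 ± 0.108 (95% interval 0.02 to 0.48; edgeR adjusted p = 0.233) for CEP, 0.11 ± 0.109 (-0.12 to 0.34; edgeR adjusted p = 0.883) for 4SU and 0.36 ± 0.108 (0.13 to 0.58; edgeR adjusted p = 0.0837) for CEP+4SU. Without CEP+4SU replicate 1 the latter was 0.43 with an edgeR adjusted p of 0.0398, in a range of 0.0204 to 0.417 over all alternatives.

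**Figure D2:**
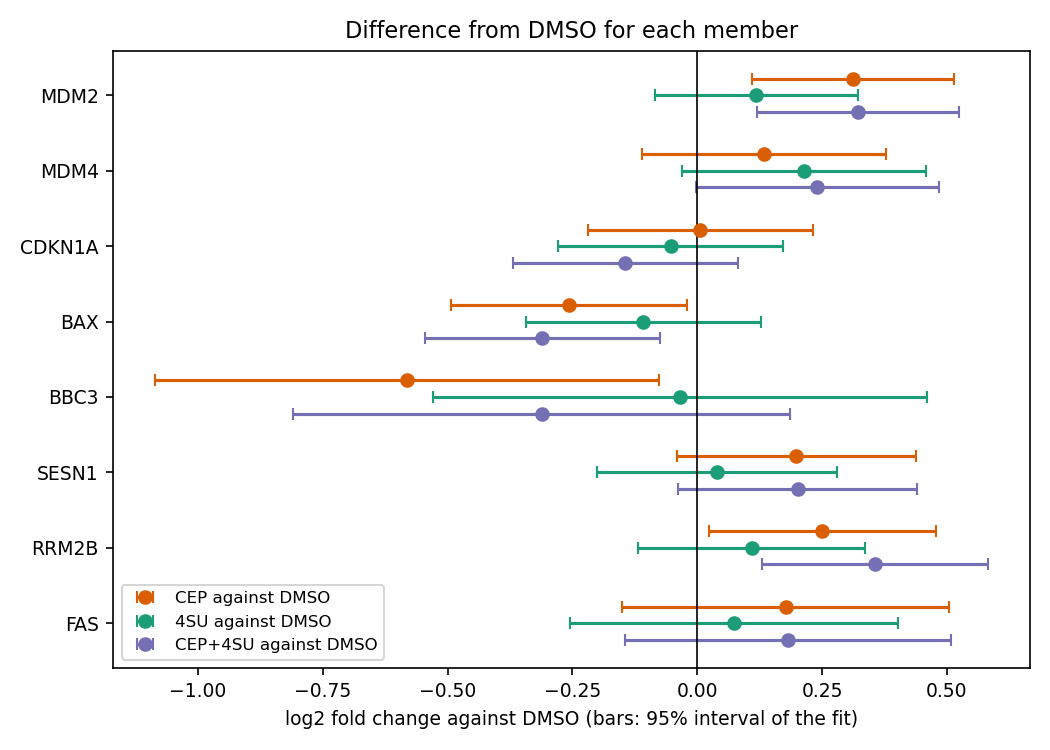
The log2 fold change against DMSO (horizontal axis) is plotted for each gene with its 95% interval from the edgeR fit, 1 colour for each treated group. Intervals for CEP clear 0 for MDM2, BAX, BBC3 and RRM2B and those for CEP+4SU for MDM2, BAX and RRM2B, before adjustment over all genes, while all 4SU intervals include 0.

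Over both levels of the other compound, CEP gave log2 fold changes of 0.25 ± 0.0767 for RRM2B (edgeR adjusted p = 0.0846), -0.23 ± 0.0798 for BAX (0.103) and -0.43 ± 0.17 for BBC3 (0.137), and 0.18 ± 0.0809 for SESN1 (0.183). In this comparison of 6 libraries against 6, all 8 members overlapped, where 1.73% of tested genes did not. For 4SU averaged over CEP, the members lay between -0.10 for CDKN1A and 0.16 for MDM4, with a median of 0.05 against -0.0019 over all genes, and all overlapped, against a background of 1.35%. The interaction ranged from -0.11 for MDM2 to 0.31 for BBC3, whose interval ran from -0.41 to 1.02, with edgeR adjusted p-values of 1.0 for all 8. The median of the members was 0.16 for CEP, 0.06 for 4SU and 0.19 for CEP+4SU on the log2 scale, and that of all genes tested was within 0.01 of 0 in each.

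The direction of the members followed the base composition of their transcripts. In the longest annotated transcript, GC content was 36.4% for RRM2B, 39.1% for FAS, 41.9% for MDM2, 42.4% for MDM4 and 43.4% for SESN1, and all 5 had positive log2 fold changes with CEP and with CEP+4SU. It was 58.1% for CDKN1A, 58.9% for BAX and 69.7% for BBC3, whose values were between -0.58 and 0.01 with CEP and between -0.31 and -0.14 with CEP+4SU. The libraries themselves differed in the same respect. Over all tested genes, expression relative to the mean of the libraries sloped by 0.104 to 0.106 (log2 per 10 points of GC) in the DMSO libraries. The slope was 0.041, -0.169 and -0.115 in CEP replicates 1 to 3, 0.12, -0.0103 and 0.0257 with 4SU, and 0.036, -0.22 and -0.0244 with CEP+4SU. All 6 CEP-treated libraries were thus below all DMSO libraries in this slope.

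Across the 12 libraries, the log2 CPM of 5 members ran closely along this slope, given here as a description without a test. MDM2 had Pearson's r = -0.98 and Spearman's rho = -0.93, BAX r = 0.97 and rho = 0.895, and RRM2B r = -0.936 and rho = -0.965. For FAS r was -0.888 (rho = -0.895) and for BBC3 0.887 (rho = 0.832). The other 3 members had r = -0.809 (SESN1, rho = -0.629), -0.623 (MDM4, rho = -0.65) and 0.573 (CDKN1A, rho = 0.517). Of all 17729 genes tested, 0.0733% had an r at least as large in size as MDM2, 0.226% as BAX, 1.75% as RRM2B, 6.33% as FAS, 6.52% as BBC3, 15.3% as SESN1, 35.3% as MDM4 and 40.5% as CDKN1A. The slope is computed from these same genes and libraries, so each library contributes both to its slope and to the member's level.

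Without CEP replicate 2 and CEP+4SU replicate 2, the libraries farthest from the median slope, r was -0.953 for MDM2, 0.913 for BAX, -0.991 for RRM2B, -0.804 for FAS and 0.807 for BBC3. It was smaller in size for SESN1 (-0.463), MDM4 (-0.29) and CDKN1A (0.0188). Within the 6 libraries without CEP, r was -0.947 for MDM2, 0.914 for BAX, -0.995 for RRM2B, -0.907 for FAS, 0.581 for BBC3, -0.311 for SESN1, -0.812 for MDM4 and 0.774 for CDKN1A. Within the 6 with CEP it was -0.983, 0.959, -0.852, -0.876, 0.888, -0.791, -0.631 and 0.598 in the same order.

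**Figure D3:**
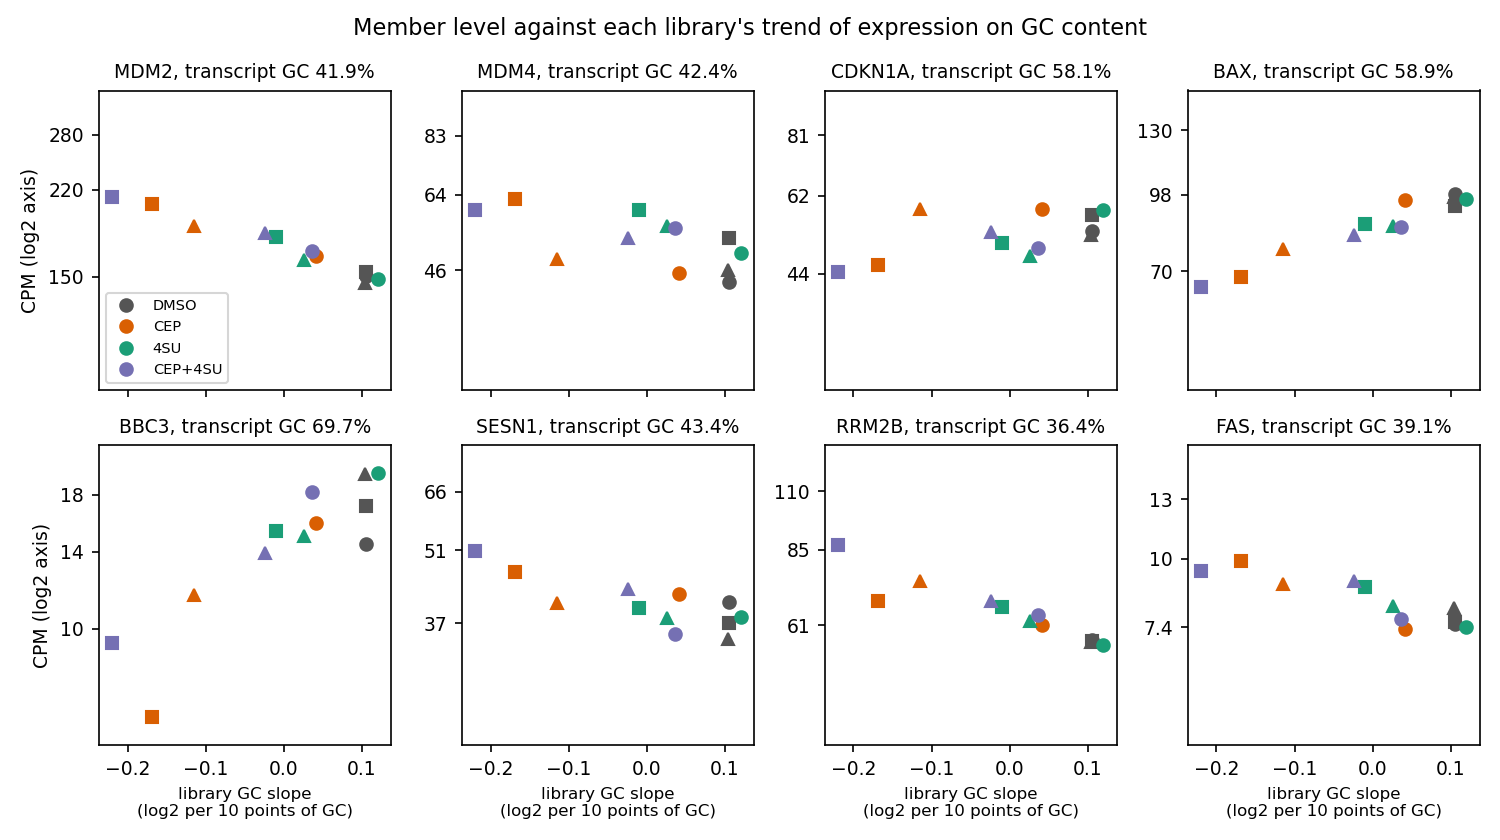
Each panel plots 1 gene's CPM (log2 axis, same span of log2 units in all panels) against the slope of the library's expression on GC content, in log2 units per 10 percentage points; colours are the 4 groups and symbols the replicate numbers (circle 1, square 2, triangle 3). MDM2, RRM2B and FAS decline and BAX and BBC3 climb along the axis, with CEP replicate 2 and CEP+4SU replicate 2 at its left end and the 3 DMSO libraries near 0.1.

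With each library's trend on GC content removed before the fit, an alternative added after the data were seen, most members moved toward 0 or across it. For CEP, MDM2 went from 0.31 to 0.18 (edgeR adjusted p = 0.466), BAX from -0.26 to -0.08 (0.789), BBC3 from -0.58 to -0.18 (0.776), RRM2B from 0.25 to 0.04 (0.895) and FAS from 0.18 to -0.0015 (0.998). CDKN1A moved away from 0, from 0.01 to 0.17 (0.583). For CEP+4SU, MDM2 went from 0.32 to 0.20 (edgeR adjusted p = 0.13), RRM2B from 0.36 to 0.15 (0.294), BAX from -0.31 to -0.13 (0.364) and BBC3 from -0.31 to 0.09 (0.84). The SE of MDM2 shrank from 0.097 to 0.0637 in the same fit. Since all CEP-treated libraries lie on one side of all DMSO libraries in slope, the slope and the treatment cannot be told apart.

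**Figure D4:**
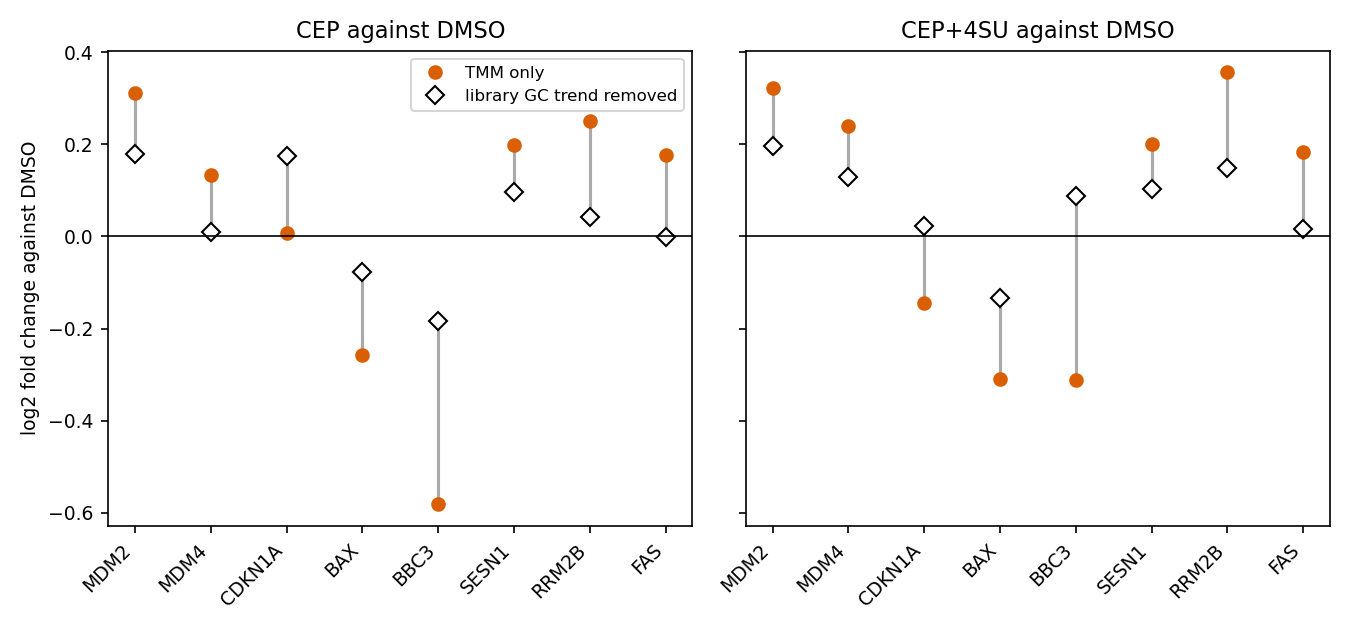
The log2 fold change against DMSO (vertical axis) is shown for each gene with TMM normalization only (filled circles) and with each library's trend on GC content removed (open diamonds), for CEP and for CEP+4SU. BBC3 moves from -0.58 to -0.18 with CEP and from -0.31 to 0.09 with CEP+4SU, and MDM2 stays above 0 in both.

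Genes whose log2 CPM ran most nearly parallel to a member over the 12 libraries, out of 14902 with a mean of at least 1 CPM, were ZNF449 for MDM2 (Pearson's r = 0.983), ELK4 for MDM4 (0.939), DLX4 for CDKN1A (0.886), CENPB for BAX (0.985), ZNF703 for BBC3 (0.972), PDCD6IP for SESN1 (0.942), UBE2V2 for RRM2B (0.985) and USP37 for FAS (0.95). The GC content of these genes was 34.3% to 39.9% for the neighbours of MDM2, MDM4, SESN1, RRM2B and FAS, and 56.8% to 66.2% for those of the other 3. Among the members, MDM2 ran with RRM2B (r = 0.918) and FAS (0.885) and against BAX (-0.956) and BBC3 (-0.871). These are descriptions over libraries that share the GC trend.

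Further targets of p53 were read from 3 lists of 57 genes, of which 52 were tested. They held equal or nearly equal numbers above and below 0, with 25 higher and 27 lower for CEP, 27 and 25 for 4SU and 26 and 26 for CEP+4SU. Their median log2 fold changes of -0.0089, 0.012 and 0.001 lay beside -0.0047, -0.0073 and 6.61e-05 for all genes. By edgeR's quasi-likelihood test, CCNG1, which encodes cyclin G1, was the 1 gene of the 52 called in any of the 6 comparisons, against the background of 1.64% for CEP+4SU. At an unadjusted p under 0.05 edgeR gave 7 of the 52 for CEP, 3 for 4SU and 10 for CEP+4SU. The share of all tested genes that passed was 18.6%, 6.50% and 21.4%. DESeq2 called 1 for CEP, 0 for 4SU, 2 for CEP+4SU and 7 for CEP averaged over 4SU. Of all genes with a DESeq2 adjusted p, 1.83%, 0.363%, 9.96% and 14.6% were called in this order. DESeq2 gave no adjusted p to part of the 52. For 4SU it gave one to 3 arrest and feedback, 7 apoptosis and 3 repair and metabolism targets. For CEP averaged over 4SU these numbers were 12, 11 and 12. CCNG1 rose with CEP+4SU by a log2 fold change of 0.38 ± 0.0942 (edgeR adjusted p = 0.0492), from 238 ± 10.3 CPM in DMSO to 309 ± 34.8 CPM (SD, n = 3). It stood at 293 ± 36.1 CPM under CEP and 271 ± 21.9 CPM under 4SU. Its transcript holds 38.2% GC, and with the GC trend removed its value was 0.20 (edgeR adjusted p = 0.124). This call was lost in 13 of the 24 alternatives run, over which the adjusted p ran from 0.00123 to 0.235, and the value was 0.28 without CEP replicate 2 and CEP+4SU replicate 2.

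Of the 21 tested arrest and feedback targets, edgeR called CCNG1 with CEP+4SU and 0 in the other comparisons. It gave 3, 2 and 6 at an unadjusted p under 0.05 for CEP, 4SU and CEP+4SU, against 18.6%, 6.50% and 21.4% of all genes. DESeq2 called CCNG1 and PPM1D with CEP+4SU, of 14 targets with an adjusted p, and these and ZMAT3 for CEP averaged over 4SU, of 12. Of all genes with a DESeq2 adjusted p, 9.96% and 14.6% were called. ZMAT3, an RNA-binding zinc finger protein, had a log2 fold change of 0.38 with CEP (edgeR adjusted p = 0.173), and CCNG1 had 0.30 (0.175). With 4SU the smallest p-values belonged to NOTCH1 at -0.29 (edgeR adjusted p = 0.758) and the sestrin SESN2 at -0.19 (0.762). PPM1D, the phosphatase that dampens p53 signalling, had 0.27 with CEP+4SU (edgeR adjusted p = 0.0976, DESeq2 adjusted p = 0.0462, range 0.0462 to 0.31 over the alternatives).

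Of the 14 tested apoptosis targets, edgeR called 0 in any comparison. An unadjusted p under 0.05 was reached by 3, 1 and 2 for CEP, 4SU and CEP+4SU, and by 18.6%, 6.50% and 21.4% of all genes. DESeq2 called PIDD1 for CEP, and PIDD1, APAF1 and PHLDA3 for CEP averaged over 4SU, of 11 targets with an adjusted p in each. Of all genes with a DESeq2 adjusted p, 1.83% and 14.6% were called. PIDD1, a death-domain protein that activates caspase-2, had the largest difference in the list, -0.65 with CEP (edgeR adjusted p = 0.152, DESeq2 adjusted p = 0.00786), -0.24 with 4SU (0.794) and -0.42 with CEP+4SU (0.108). For CEP the adjusted p of PIDD1 ran from 6.68e-06 to 0.475 over the 24 alternatives and was under 0.05 in 5 of them. It holds 66.0% GC, and the values without the GC trend were -0.31, -0.12 and -0.09. PHLDA3, an inhibitor of AKT, had -0.47 with CEP (edgeR adjusted p = 0.204). The TRAIL receptors gave -0.29 with 4SU for the decoy TNFRSF10D (edgeR adjusted p = 0.762) and 0.15 with CEP+4SU for TNFRSF10B (0.229). TNFRSF10A, TNFRSF10C and TP53AIP1 were at or under 20 counts over all libraries.

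Of the 17 tested repair and metabolism targets, edgeR called 0. It gave 1, 0 and 2 at an unadjusted p under 0.05 for CEP, 4SU and CEP+4SU, against 18.6%, 6.50% and 21.4% of all genes. DESeq2 called FDXR alone, for CEP averaged over 4SU, of 12 targets with an adjusted p. Of all genes with a DESeq2 adjusted p in that comparison, 14.6% were called. The mitochondrial ferredoxin reductase FDXR had -0.24 with CEP (edgeR adjusted p = 0.22) and -0.22 with CEP+4SU (0.21), and 0.0074 and 0.032 without the GC trend. FBXO22, a ubiquitin ligase subunit, had 0.17 with CEP (edgeR adjusted p = 0.273) and 0.15 with 4SU (0.79). DDB2, which recognizes UV lesions, had 0.23 with 4SU (edgeR adjusted p = 0.768), and BLOC1S2 0.20 with CEP+4SU (0.231). TRIM22 had 57 counts and was not tested.

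Upstream of p53, the list of 20 regulators and nucleolar stress sensors, all tested, held 0 genes called by edgeR. An unadjusted p under 0.05 was reached by 2, 3 and 5 for CEP, 4SU and CEP+4SU, and by 18.6%, 6.50% and 21.4% of all genes. DESeq2 called MYBBP1A and NOP53 with CEP+4SU and NPM1 for CEP averaged over 4SU, with an adjusted p for all 20 in both. Of all genes with a DESeq2 adjusted p, 9.96% and 14.6% were called. CDKN2A, whose ARF product sequesters MDM2, had -0.33 with CEP (edgeR adjusted p = 0.234). The nucleolar protein MYBBP1A had -0.21 with CEP (edgeR adjusted p = 0.255), -0.27 with 4SU (0.684) and -0.36 with CEP+4SU (0.0585, and 0.00988 by DESeq2). NPM1, the main nucleolar chaperone, had -0.16 with 4SU (edgeR adjusted p = 0.758), and NOP53, a ribosome assembly factor, -0.34 with CEP+4SU (0.0753, and 0.0213 by DESeq2). Over the 24 alternatives for CEP+4SU the adjusted p of MYBBP1A ran from 0.00139 to 0.275, under 0.05 in 10, and that of NOP53 from 0.00507 to 0.405, under 0.05 in 5. CDKN2A, MYBBP1A and NOP53 hold 61.4%, 60.9% and 61.1% GC. With the GC trend removed, CDKN2A had -0.11 with CEP and NOP53 -0.12 with CEP+4SU. MYBBP1A then had 0.017 with CEP, -0.19 with 4SU and -0.14 with CEP+4SU. NPM1, at 43.3% GC, had -0.18 with 4SU. The medians of this list were 0.05, -0.0093 and 0.06 for CEP, 4SU and CEP+4SU.

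Downstream of CDKN1A, 23 cell cycle genes that p53 can lower were all tested, and edgeR called 0 in any comparison. It gave 6, 1 and 5 at an unadjusted p under 0.05 for CEP, 4SU and CEP+4SU, against 18.6%, 6.50% and 21.4% of all genes. DESeq2 called CHEK1 with CEP+4SU, and KIF23 and TOP2A for CEP averaged over 4SU, of 22 genes with an adjusted p in each. Of all genes with a DESeq2 adjusted p, 9.96% and 14.6% were called. The medians of the list were 0.12, 0.04 and 0.08, and 18, 14 and 15 of its genes lay above 0 for CEP, 4SU and CEP+4SU. Of all 17729 genes tested, 8751, 8545 and 8867 did. The median GC content was 44.3% in the list and 48.5% over all genes tested. TOP2A and ECT2, which act in mitosis and cytokinesis, had 0.22 and 0.21 with CEP (edgeR adjusted p = 0.191 and 0.212). The checkpoint kinase CHEK1 had 0.19 with 4SU (edgeR adjusted p = 0.744) and 0.28 with CEP+4SU (0.0691, and 0.0159 by DESeq2, range 0.0159 to 0.275 over the alternatives). The kinesin KIF23 had 0.26 with CEP+4SU (edgeR adjusted p = 0.108). The cytokinesis gene PRC1 had 0.51 with 4SU (edgeR adjusted p = 0.79) at a mean of 2.37 CPM. It had 557 counts over all libraries, where the next lowest gene of the list, CDC25C, had 6382, and the reason was not tested. With the GC trend removed, TOP2A and ECT2 had 0.04 and 0.02 with CEP, and KIF23 had 0.14 with CEP+4SU. CHEK1 then had 0.15 with 4SU and 0.15 with CEP+4SU, and PRC1 had 0.52 with 4SU.

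**Figure D5:**
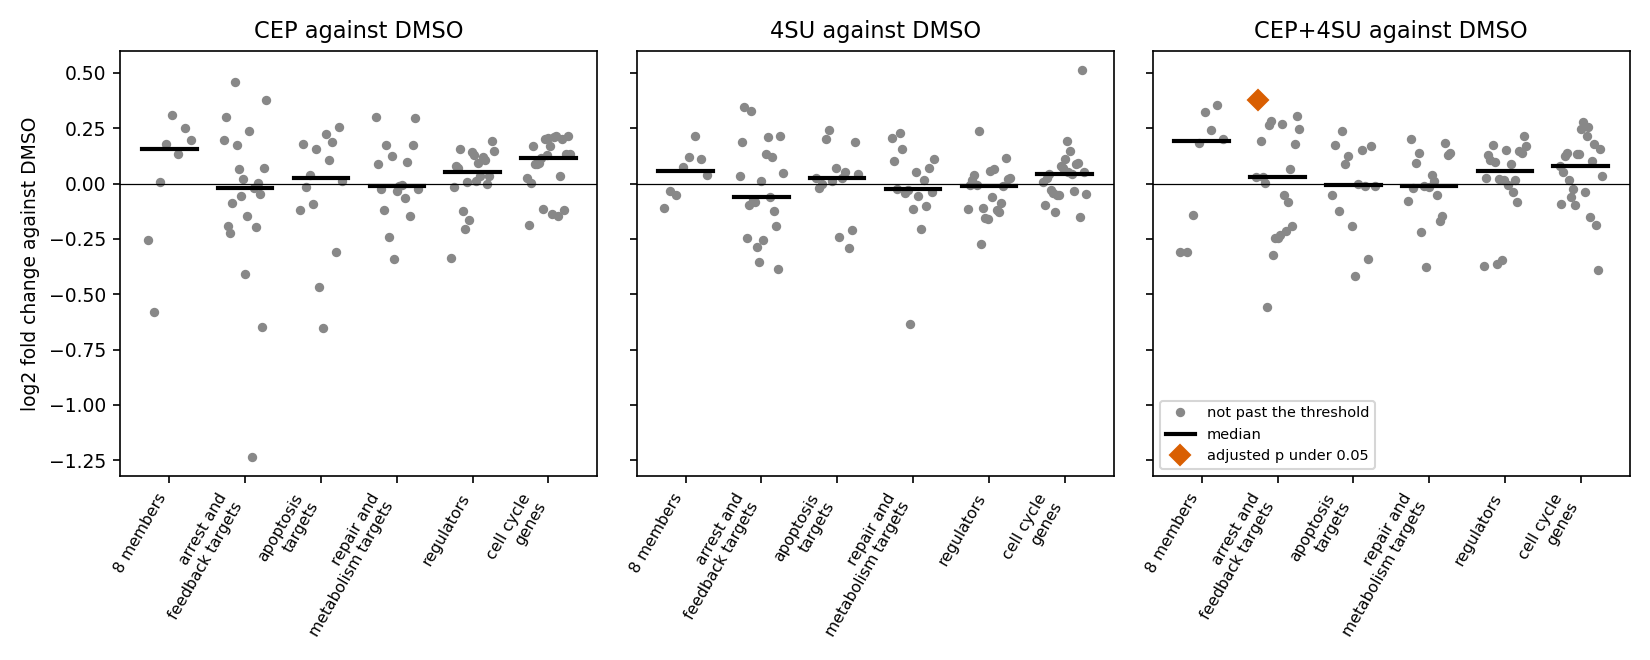
Each point is 1 gene's log2 fold change against DMSO (vertical axis), grouped by list along the horizontal axis, with a bar at the median of the list. The median of the 8 members is 0.16 with CEP and 0.19 with CEP+4SU, the 3 lists of further p53 targets have medians near 0, and the diamond marks CCNG1, the single gene with an edgeR adjusted p under 0.05.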

How the data were processed

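RNA-Seq of polyadenylated RNA from 12 HEK293T libraries was analysed. Reads of low quality or with adapters or poly-N had been discarded, and the authors deposited fragment counts per gene, and the submitters' processing notes name HISAT2 2.0.5 and featureCounts 1.5.0-p3, with GRCh38 as build. The deposited FPKM values rest on the same counts, with library sizes that the authors had adjusted. A table of group means was not used. Counts were analysed with edgeR 4.0.16 in R 4.3.3 (filterByExpr with minimum count 10, TMM, 1 quasi-likelihood model of 4 groups, prior count 0.125, threshold 0.05), which kept 17729 genes at a common coefficient of variation of 0.114. Intervals are 95% limits from the fit. The script was tested on simulated data. GC content came from GENCODE 29 transcripts. Alternatives were DESeq2 1.42.0, limma 3.58.1 on log2(FPKM + 1) or log2(FPKM + 0.1), other normalizations and low-count filters, the replicate number as a block, the 6 libraries of a comparison alone and each library left out. Removal of GC or length trends and the joint omission of CEP replicate 2 and CEP+4SU replicate 2 were added after the data were seen.

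The members and lists were chosen with earlier results of these data known. Named beside the members are list genes past the threshold, the 2 genes of smallest p per list and comparison with DMSO at a mean of at least 1 CPM, and the nearest gene to each member. The labels call the replicates independent and do not say which libraries share a day or batch. Counting errors are the inverse square root of a count and cover counting only. Protein data were not analysed here. Totals of listed genes include 1 gene that is not reported here.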

Additional observations from a re-analysis of the deposited data

How the results depend on the processing

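Each comparison with DMSO was refitted under 24 alternatives and each averaged one under 23. The members called for CEP against DMSO went from 0 to 2 without a low-count filter (MDM2 and BBC3) and to between 0 and 3 with 1 library left out, the 3 being MDM2, BAX and BBC3 without CEP replicate 1. For CEP+4SU they went from 0 to 2 with DESeq2 (MDM2 and RRM2B), 3 without the filter and 0 to 2 with 1 library left out (MDM2 and RRM2B without CEP+4SU replicate 1). For CEP averaged over 4SU they went from 0 to 3 with DESeq2, 4 without the filter and 0 to 4 with 1 library left out, 4 without CEP replicate 1 and 2 without CEP+4SU replicate 1. Members called for the 4SU comparisons and the interaction stayed at 0 in all of them. Of all genes with an adjusted p, DESeq2 called 1.83% for CEP, 9.96% for CEP+4SU and 14.6% for CEP averaged over 4SU. Without the filter these shares were 1.86%, 3.46% and 4.06%, with 0.873% for 4SU averaged over CEP. With 1 library left out, the number of all genes called ran from 4 to 1214, 14 to 812 and 21 to 2171 for the same 3 comparisons. Pathway genes called went from 0 to 1 with DESeq2 and 3 without the filter for CEP (0 to 5 with 1 library left out, 5 without CEP replicate 1 and 1 without CEP+4SU replicate 2), and from 1 to 2 with DESeq2 and 3 without the filter for CEP+4SU. The latter count was 0 with upper-quartile normalization, both limma fits, the GC trend removed, and CEP replicate 2 and CEP+4SU replicate 2 both left out, and 0 to 1 with 1 library left out (0 without any of the DMSO or 4SU libraries or CEP+4SU replicates 2 and 3). For CEP averaged over 4SU it went from 0 to 7 with DESeq2, 4 without the filter and 0 to 6 with 1 library left out (6 without CEP replicate 1, 4 without CEP+4SU replicate 1), and for 4SU averaged over CEP to 1 without the filter. Over all genes, the counts called went from 10 to between 2 and 1214 for CEP, from 1 to between 0 and 94 for 4SU, from 290 to between 10 and 1667 for CEP+4SU, from 49 to between 17 and 2269 for CEP averaged over 4SU, from 99 to between 6 and 604 for 4SU averaged over CEP and from 0 to between 0 and 15 for the interaction. The causes were not tested.

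Same-numbered libraries correlated weakly across groups. Of 18 such pairs 1 was above 0.1 (range -0.0469 to 0.141), and 7 of 12 libraries correlated best with their own number. How many would do so with unrelated numbers was not computed. Whether the numbers mark a shared day or batch was not tested. With the replicate block, 1, 3 and 4 members and 2, 2 and 7 pathway genes were called for CEP, CEP+4SU and CEP averaged over 4SU, where 4.4%, 9.4% and 12.8% of all genes were called. The block also gave -0.00064 for CDKN1A with CEP.

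Signs turned in 64 values for genes not past the threshold. Of these 23 were of CDKN1A, whose CEP value was -0.0090 with upper-quartile normalization, -0.00017 without the filter, -0.0043 with at least 10 counts in every library, and -0.0065 and -0.0073 with limma at a pseudocount of 1 and 0.1, and -0.052 to 0.12 with 1 library left out. Its 4SU value was 0.0019 with library size alone and -0.14 to 0.016 with 1 library left out, and CEP averaged over 4SU gave 0.012 with the length trend removed, 0.041 without CEP replicate 2 and CEP+4SU replicate 2, and -0.087 to 0.0092 with 1 library left out. With the GC trend removed CDKN1A gave 0.013 with 4SU, 0.023 with both and 0.092 for CEP averaged over 4SU, BBC3 0.12 with 4SU and 0.088 with both, FAS -0.0015 with CEP and -0.0034 averaged, MDM4 -0.022 averaged, FDXR 0.0074 with CEP and 0.032 with both, FBXO22 -0.020 with CEP and MYBBP1A 0.017 with CEP. MDM4 also gave -0.0069 averaged with the length trend removed, -0.018 with CEP and -0.025 averaged without CEP replicate 2 and CEP+4SU replicate 2, and -0.018 to 0.24 with CEP when 1 library was left out. BBC3 with 4SU gave 0.021 with library size alone and -0.17 to 0.087 with 1 library left out, and SESN1 with 4SU -0.010 to 0.11. For 4SU averaged over CEP, SESN1 gave -0.014 without CEP replicate 2 and CEP+4SU replicate 2, and with 1 library left out SESN1 gave -0.045 to 0.085, BBC3 -0.0060 to 0.27 and FAS -0.016 to 0.092. The interaction was -0.019 for BAX and 0.070 for RRM2B with the GC trend removed and 0.0041 for RRM2B with the length trend removed. With 1 library left out it was -0.21 to 0.039 for MDM4, -0.056 to 0.18 for BAX, -0.19 to 0.077 for SESN1, -0.16 to 0.073 for RRM2B and -0.20 to 0.020 for FAS. Of the 1848 single-gene values, 1700 kept sign and side of the threshold. FAS had 138 to 198 counts per library, with a counting error of 7.11% to 8.51%. BBC3 had a counting error of 4.59% to 9.33%, below its replicate spread of 15.1% to 39.9% of the mean.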
